A study of Drosophila melanogaster with 20 samples.

Results

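Eye colour in Drosophila comes from 2 classes of pigment, and the 8 genes described here transport pigment precursors or act in pigment synthesis. They were w, st and bw, the subunits of the pigment precursor transporters, v and cn, enzymes of the brown ommochromes, and pr, se and ry, enzymes of the red pteridines. The 8 genes were taken by symbol from the 14081 genes in the tables, and the set was drawn up because w differed strongly between the lines. The values of w therefore chose the set and are given as a description with no test, while the other 7 genes were chosen by function.

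The study sequenced RNA of whole larvae, 4 days old and kept at 25 °C, in which import of S-adenosylmethionine (SAM), the methyl donor, into mitochondria was altered through the SAM carrier. The labels give 5 libraries for each of 4 groups: DmSAMC.I172G, titled the mild mutant (here I172G), DmSAMC.P223L, titled a severe mutant (P223L), DnSAMC.M1fs;M39*, titled the severe null mutant (SAMC-null), and control. All 4 groups share the genetic background wDah, a Dahomey strain that carries a mutant allele of w, and the protocol calls the lines genomically engineered. The labels do not tie the 5 libraries of a group to different cultures or cages, and a p-value here therefore covers the library-to-library spread alone, which may be technical. Each group is 1 line, so a difference between the carrier alleles and any other difference between the lines cannot be told apart.

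White pairs with Scarlet to carry ommochrome precursors and with Brown to carry pteridine precursors. In larvae, v, cn and the transporters also work in the Malpighian tubules, the renal organs of the fly, which take up and store kynurenine and 3-hydroxykynurenine. Vermilion opens the tryptophan ring, cinnabar hydroxylates kynurenine, purple makes the pyruvoyl intermediate of tetrahydrobiopterin, sepia acts further down toward drosopterin, and rosy is xanthine dehydrogenase, which needs a molybdenum cofactor. A shortened copy of w is a common marker on engineered fly chromosomes. Whether these lines carry such a copy is not given in the sources used here, and its transcripts and those of the gene on the X chromosome cannot be told apart in these values.

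Values are normalised counts, the deposited unit, which sum to 32994074 to 36610401 per library in I172G, 24787115 to 26077354 in P223L, 22092107 to 22851437 in SAMC-null and 33211877 to 35427525 in control. The carrier gene itself, CG4743, was read at 144 to 199 normalised counts in I172G, 184 to 249 in P223L, 90.4 to 121 in SAMC-null and 93.6 to 149 in control, so the null line kept transcripts of the gene and this level is no check of a frameshift or of an amino acid change. Differences across the transcriptome were wide in the severe lines: 78.7% of 12208 genes tested passed an adjusted p of 0.05 in P223L against control and 81.7% of 12252 in SAMC-null against control, beside 32.2% of 12253 in I172G against control. The 6 larval fat body markers (Lsp1alpha, Lsp1beta, Lsp1gamma, Lsp2, Fbp1 and Fbp2) summed to 63.9 to 325.6 normalised counts in P223L and 157 to 327 in SAMC-null, against 3591103 to 4302462 in control. In I172G larvae the same sum was 4399002 to 4778116. The 9 testis markers summed to 859 to 1670 in I172G, 1.10 to 14.8 in P223L and 0 to 3.33 in SAMC-null, against 1390 to 3623 in control. In I172G 9 of 9 fell, beside 17.6% of all genes tested called lower, but the I172G and control libraries did not overlap for 2 of the 9 only. In the severe lines the testis markers, and the fat body markers other than Lsp1gamma, needed the control libraries to pass the low-value filter, so no count of calls is given for them there. In whole larvae, fewer cells of a type and less RNA per cell cannot be told apart. Equal age in days need not be equal developmental stage, and a difference in stage cannot be told apart from these either. I172G replicate 1 stood apart from its group, with Eig71Ec, a late-larval gene, at 235 normalised counts, against 0 to 1.09 in the other 4 libraries, and with e at 6692, against 31.7 to 64.8. Control replicate 4 had AOX3 at 6678, against 2532 to 3064 in the other control libraries. All 3 comparisons with control use the same 5 control libraries.

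The transcript of w was low in control and high in each carrier line. It was read at 194, 173, 179, 191 and 599 normalised counts in I172G replicates 1 to 5, at 822, 611, 194, 404 and 635.5 in P223L, and at 1508, 2169, 824, 1878 and 2310.4 in SAMC-null, against 15.9, 5.31, 23.4, 3.47 and 5.64 in control. No library of a carrier line came near a control library: the lowest, I172G replicate 2, lay above the highest control library, replicate 3. The mean was 267.0 ± 186 in I172G, 533 ± 241 in P223L, 1738 ± 596 in SAMC-null, against 10.8 ± 8.59 in control (SD, n = 5 each). On the log2(normalised count + 1) scale I172G differed from control by 4.62 (24.6-fold), P223L by 5.66 (50.5-fold) and SAMC-null by 7.43 (172.2-fold).

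The order of the groups for w was SAMC-null, P223L, I172G and control. SAMC-null and P223L did not overlap, by a small margin (824 for the lowest SAMC-null library and 822 for the highest P223L library). P223L and I172G overlapped, since P223L replicate 3 at 194 was level with I172G replicate 1, and I172G replicate 5 at 599 lay above P223L replicates 3 and 4. The log2 difference was -2.81 for I172G against SAMC-null, -1.77 for P223L against SAMC-null and -1.04 for I172G against P223L. The spread within a group was wide for this gene, with a coefficient of variation of 69.6% in I172G, 45.1% in P223L, 34.3% in SAMC-null and 79.9% in control.

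**Figure D1:**
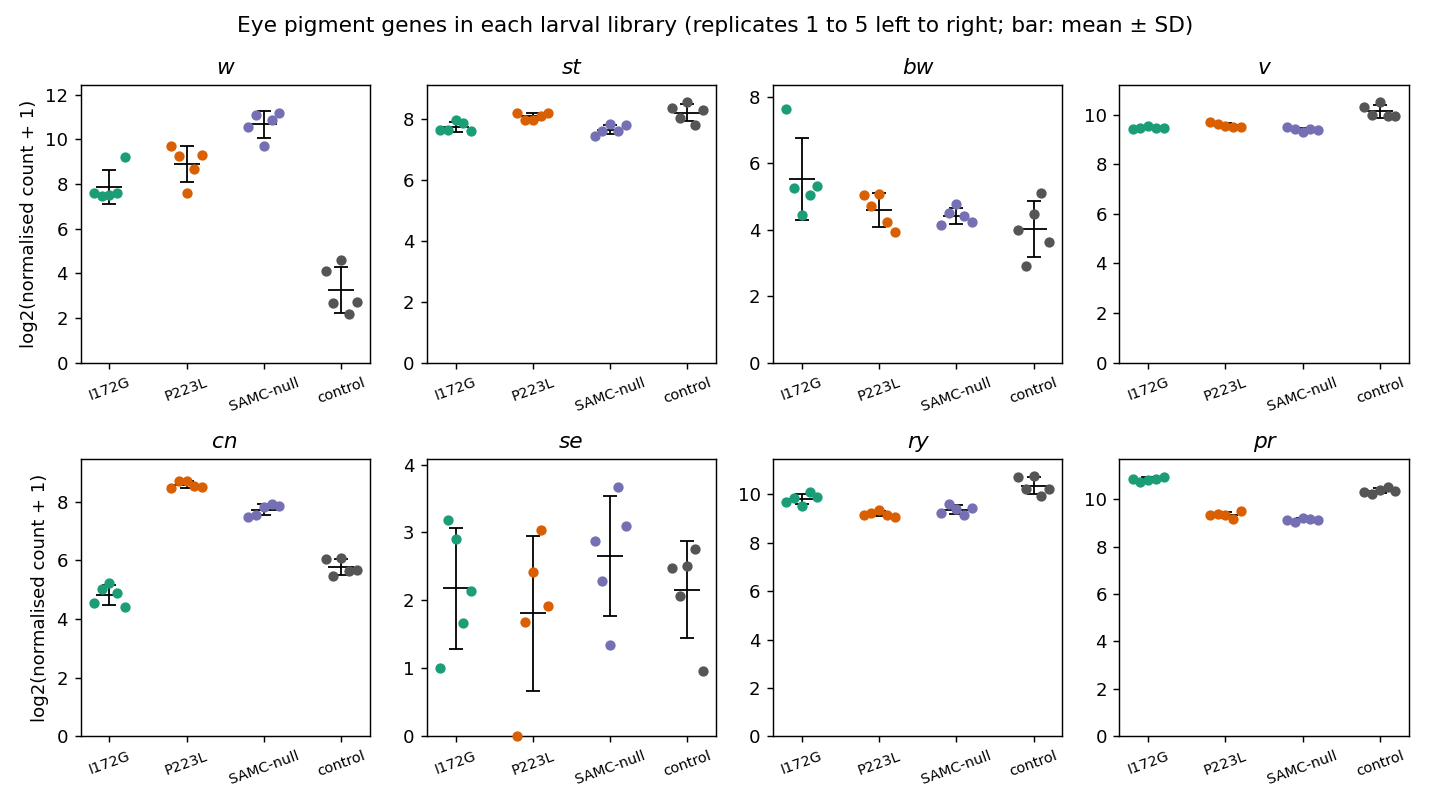
Each panel shows 1 gene, with log2(normalised count + 1) in every library on the vertical axis and the 4 groups on the horizontal axis; points are replicates 1 to 5 from left to right and bars are the mean ± SD of 5 libraries. For w, the lowest carrier library is 173 normalised counts and the highest control library 23.4, while cn is high in P223L and SAMC-null only and se is near 0 throughout.

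The gene st did not share that order. Its libraries held 198, 201, 251, 232.5 and 194 normalised counts in I172G, at 299, 252, 254, 273 and 296 in P223L and at 173 to 228 in the 5 SAMC-null libraries (median 196), against 329, 266, 377, 225 and 314 in control. P223L and control libraries interleaved, while most I172G and SAMC-null libraries lay below most control libraries. By limma with Benjamini-Hochberg adjustment, st was lower in SAMC-null than in control (log2 difference -0.56 ± 0.13 SE, adjusted p = 0.00208) and in I172G than in control (-0.47 ± 0.14, adjusted p = 0.0249). The I172G call was lost without control replicate 1, 3 or 5 or without I172G replicate 2 or 5, with adjusted p between 0.0502 and 0.0585. In P223L the difference was -0.12, with a 95% interval of -0.40 to 0.16 and an adjusted p of 0.404. P223L libraries all lay above those of SAMC-null (0.44 ± 0.09, adjusted p = 0.000622) and above those of I172G (-0.35 ± 0.09 for I172G against P223L, adjusted p = 0.00396). I172G and SAMC-null differed by 0.08 (adjusted p = 0.459).

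The gene bw was low in every group. The libraries had 200.4, 37.1, 20.7, 31.8 and 38.8 normalised counts in I172G, at 31.9, 25.5, 32.7, 17.7 and 14.2 in P223L and at 16.8, 21.6, 26.3, 20.4 and 17.9 in SAMC-null, against 15.0, 6.45, 21.3, 33.9 and 11.4 in control. I172G replicate 1 lay far above every other library, and the other 19 libraries of the 4 groups ran from 6.45 to 38.8. The difference from control was 1.51 ± 0.58 (SE) in I172G (adjusted p = 0.0672; 0.98 without I172G replicate 1, adjusted p = 0.105), 0.57 ± 0.40 in P223L (adjusted p = 0.205) and 0.39 ± 0.36 in SAMC-null (adjusted p = 0.333). None passed; the I172G difference passed in a fit of all 4 groups together (adjusted p = 0.0141) and without control replicate 4 (adjusted p = 0.0313). For I172G against SAMC-null bw was higher by 1.12 ± 0.48 (adjusted p = 0.0447), and without I172G replicate 1 by 0.59 (adjusted p = 0.0344). This call was lost without I172G replicate 2 or 5 or any 1 SAMC-null library, with adjusted p between 0.0515 and 0.0857. Of the bases in its merged exons, 16.6% are shared with mi on the opposite strand, which was read at 750 normalised counts in I172G, 668.5 in P223L, 719 in SAMC-null and 706 in control. The labels do not state whether the library kept strand, so reads there cannot be told apart.

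Divided by the length of their merged exons (2352 bases for w, 2146 for st and 2738 for bw), the transporter transcripts can be set side by side. In SAMC-null, w averaged 739 ± 254 normalised counts per kb, st 94.6 ± 10.4 and bw 7.53 ± 1.36 (SD, n = 5). In control the order of w and st was the other way round, with w at 4.57 ± 3.65 per kb, st at 140.8 ± 27.2 and bw at 6.43 ± 3.86. The share of w in the sum of the transporter transcripts per kb was 33.2% to 70.9% in I172G, 38.8% to 69.9% in P223L and 75.2% to 90.3% in SAMC-null, against 1.24% to 5.14% in control. The ratio of w to st per kb ran from 0.65 to 2.82 in I172G, 0.70 to 2.51 in P223L and 3.30 to 10.1 in SAMC-null, against 0.014 to 0.057 in control. These shares follow from the values of w that chose the set and are a description. The share of bw was highest in I172G replicate 1, at 29.5%.

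**Figure D2:**
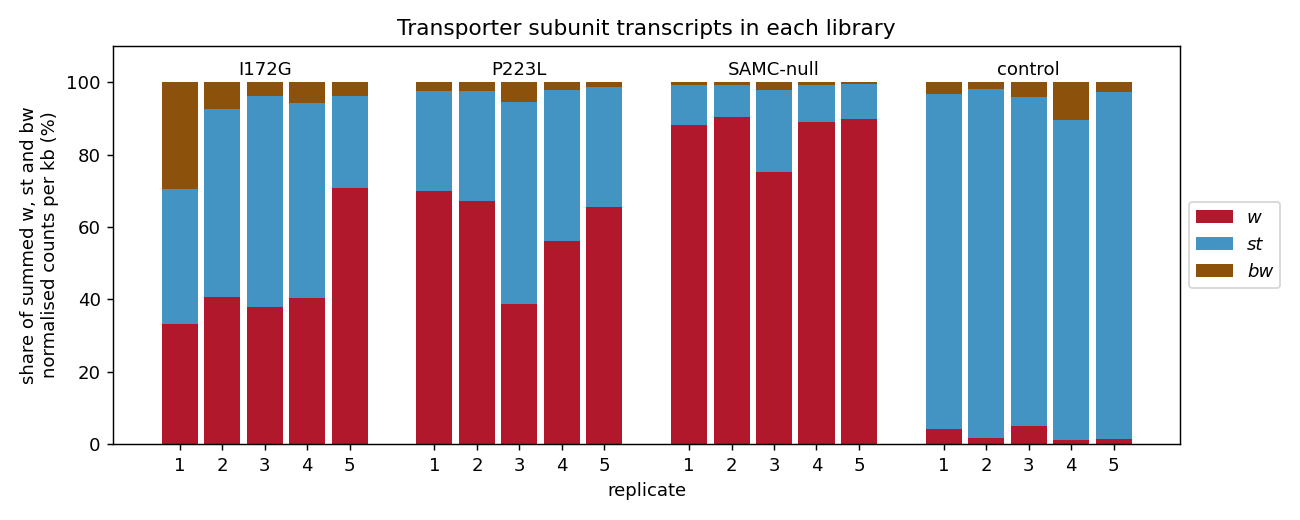
Stacked bars give, for each library (replicates 1 to 5 of the 4 groups), the percent of the summed w, st and bw normalised counts per kb that belongs to each gene. The w part is at most 5.14% in control and at least 75.2% in SAMC-null.

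Of the enzymes, v, which encodes tryptophan 2,3-dioxygenase, was lower in each line than in control. Levels were 692, 699.5, 757, 706 and 699.6 normalised counts in I172G, at 836, 799, 757.5, 735 and 719 in P223L and at 718, 685, 624.5, 688 and 659.5 in SAMC-null, against 1278, 1008, 1456, 999 and 988 in control. No carrier library overlapped control. The log2 difference was -0.67 ± 0.11 in I172G (adjusted p = 0.00142), -0.56 ± 0.11 in P223L (adjusted p = 0.000386) and -0.75 ± 0.11 in SAMC-null (adjusted p = 2.81e-05). P223L was above SAMC-null by 0.19 ± 0.05 (adjusted p = 0.00882), a difference that did not pass in a fit of all 4 groups (adjusted p = 0.102). I172G lay between them, at 0.08 against SAMC-null (adjusted p = 0.183) and -0.11 against P223L (adjusted p = 0.0774).

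The gene cn, for kynurenine 3-monooxygenase, moved in opposite directions in the mild and the severe lines. There were 22.5, 31.6, 36.9, 28.4 and 20.4 normalised counts in I172G, at 355, 421, 419, 369.7 and 364 in P223L and at 179.9, 187, 225, 243 and 232 in SAMC-null, against 65.4, 43.8, 67.6, 48.8 and 50.2 in control. The 4 groups did not overlap with each other in any pair, and their order was P223L, SAMC-null, control and I172G. Against control, cn was higher in P223L by 2.80 ± 0.13 (adjusted p = 1.4e-09) and in SAMC-null by 1.94 ± 0.15 (adjusted p = 8.9e-08), and lower in I172G (-0.97 ± 0.21, adjusted p = 0.00709). Between the lines the difference was 0.86 ± 0.09 for P223L against SAMC-null (adjusted p = 1.57e-06) and -3.77 ± 0.16 for I172G against P223L (adjusted p = 1.93e-10). Over its merged exons, 68.7% of the bases of cn are shared with an antisense RNA, asRNA:CR45108, which is not in the tables, so cn and antisense reads cannot be told apart without strand. Per kb, cn averaged 15.6 normalised counts in I172G, 215.5 in P223L, 119 in SAMC-null and 30.8 in control, so v at 545 in I172G, 590 in P223L, 517 in SAMC-null and 878 in control stayed above it in every group.

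Among the pteridine enzymes pr, the pyruvoyltetrahydropterin synthase, also split the lines. Its level was 1848, 1692, 1774, 1848 and 1977 normalised counts in I172G, at 646, 658, 640.3, 579.5 and 731 in P223L and at 558, 525, 595, 581 and 556 in SAMC-null, against 1273, 1185, 1339, 1463.5 and 1303 in control. Each carrier group lay wholly above or wholly below control. In I172G pr was higher than in control by 0.48 ± 0.07 (adjusted p = 0.000573), while it was lower in P223L (-1.01 ± 0.07, adjusted p = 4.84e-08) and in SAMC-null (-1.22 ± 0.06, adjusted p = 1.91e-09). I172G exceeded P223L by 1.49 (adjusted p = 3.03e-10) and SAMC-null by 1.70 (adjusted p = 1.41e-11). P223L exceeded SAMC-null by 0.21 ± 0.06 (adjusted p = 0.0102), although P223L replicate 4 at 579.5 lay below SAMC-null replicates 3 and 4 at 595 and 581. Per kb pr was the most abundant of the 8 transcripts in I172G, P223L and control, at 1703 normalised counts in I172G, 607 in P223L and 1223.5 in control, and in SAMC-null, at 525, it lay below w.

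The gene ry was lower in all 3 lines. Libraries held 828.6, 914.5, 741, 1092 and 963 normalised counts in I172G, at 570.3, 604, 655, 567 and 539.9 in P223L and at 592, 768, 679.9, 559.6 and 697 in SAMC-null, against 1667, 1200.0, 1713, 964 and 1201 in control. The severe lines lay wholly below control, and 1 I172G library, replicate 4 at 1092, lay above control replicate 4 at 964. The log2 difference was -0.55 ± 0.16 in I172G (adjusted p = 0.0242), -1.17 ± 0.14 in P223L (adjusted p = 6.94e-06) and -1.01 ± 0.15 in SAMC-null (adjusted p = 4.93e-05). The I172G call was lost without control replicate 1 or 3 or I172G replicate 3 (adjusted p between 0.0553 and 0.0574). I172G lay above P223L by 0.62 (adjusted p = 5.6e-05) and above SAMC-null by 0.46 (adjusted p = 0.00186), and P223L and SAMC-null differed by -0.16 (adjusted p = 0.112).

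Transcripts of se, the enzyme toward drosopterin, were near the floor of the measurement: 1.01 to 8.07 normalised counts in I172G, 0 to 7.20 in P223L and 1.53 to 11.7 in SAMC-null, against 0.943 to 5.78 in control. It failed the low-value filter in all 6 comparisons and has no test. Its last 61 exonic bases, 7.39% of the gene, are shared with GstO2 on the opposite strand, whose mean was 1641 normalised counts in I172G, 1343 in P223L, 1280.0 in SAMC-null and 2038 in control.

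**Figure D3:**
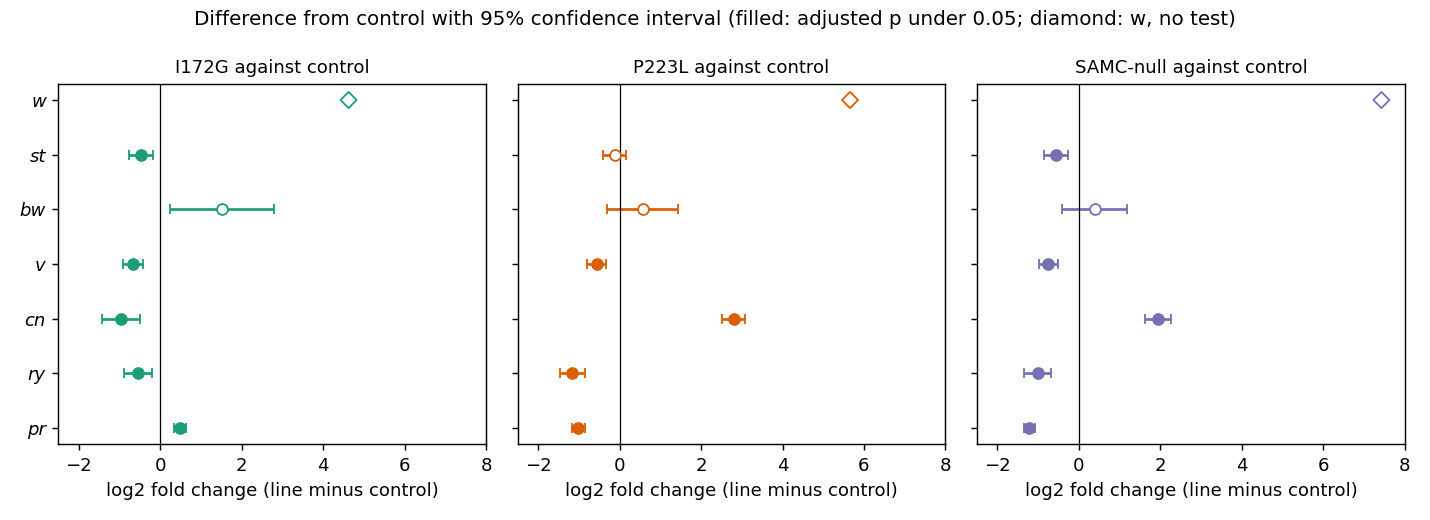
Points give the log2 difference of each line from control with its 95% confidence interval from limma, filled where the adjusted p was under 0.05 and open otherwise; the diamond for w has no interval or test. The difference for cn is 2.80 in P223L, 1.94 in SAMC-null and -0.97 in I172G, and that for pr is -1.01 in P223L, -1.22 in SAMC-null and 0.48 in I172G.

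Counted without w, 6 of the 7 remaining genes passed the filter in every comparison. In I172G against control 1 was higher and 4 were lower, beside 14.6% and 17.6% of all genes tested. In P223L against control 1 was higher and 3 were lower, beside 36.3% and 42.4%, and in SAMC-null against control 1 was higher and 4 were lower, beside 38.2% and 43.5%. For the severe lines these shares are near the background of 78.7% and 81.7% called in either direction, so the number of calls is not a result about the pigment genes. The line and control libraries did not overlap for 3 of the 6 genes in I172G and for 4 in each severe line, beside 18.1%, 68.2% and 71.9% of all genes tested. Over these 6 genes the median log2 difference was -0.51 in I172G (beside -0.03 over all genes tested), -0.34 in P223L (beside -0.06) and -0.65 in SAMC-null (beside -0.06). Between the lines, 3 were higher and 1 lower in I172G against SAMC-null, beside 43.1% and 39.7% of all genes tested and 82.8% in either direction. In P223L against SAMC-null 4 were higher and 0 lower, beside 22.4% and 25.1%, or 47.4% in either direction. In I172G against P223L 2 were higher and 2 lower, beside 42.9% and 38.0%, or 80.8% in either direction. Libraries of the lines did not overlap for 2 of the 6 genes in I172G against SAMC-null, 3 in P223L against SAMC-null and 4 in I172G against P223L, beside 73.5%, 33.9% and 70.6% of all genes tested. The authors' deposited adjusted p, as its values show, tests for a change beyond 2-fold. Under 0.05, and with w left aside, it called cn in P223L and SAMC-null, and pr in SAMC-null alone (adjusted p = 0.00524).

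The other enzymes of the ommochrome branch were KFase, Kyat and cd, giving 5 genes with v and cn. In I172G against control 1 rose and 3 fell (median -0.56), in P223L 2 rose and 2 fell (median 0.25), and in SAMC-null 1 rose and 3 fell (median -0.16). Over all genes tested 32.2% were called in I172G, 78.7% in P223L, 81.7% in SAMC-null, so 4 of 5 is near the background in the severe lines. KFase, the formamidase that follows v, averaged 1042 ± 73.9 normalised counts in I172G, 119.9 ± 20.4 in P223L, 127 ± 14.4 in SAMC-null, against 813 ± 110 in control (SD, n = 5). It rose by 0.37 ± 0.10 in I172G (adjusted p = 0.0168) and fell by 2.755 ± 0.13 in P223L (adjusted p = 1.36e-09) and by 2.66 ± 0.11 in SAMC-null (adjusted p = 3.45e-10). In the severe lines KFase, which acts between v and cn, was low where cn was high. Kyat, the kynurenine aminotransferase that draws on the same kynurenine pool, differed by -0.32 in I172G (adjusted p = 0.0212), 0.24 in P223L (adjusted p = 0.00384) and -0.15 in SAMC-null (adjusted p = 0.0267). The peroxidase-like gene cd averaged 10.2 normalised counts in I172G, 22.2 in P223L, 22.4 in SAMC-null, against 15.8 in control, and passed no test (adjusted p = 0.168 in I172G, 0.308 in P223L, 0.119 in SAMC-null).

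In the pteridine branch, 9 of 10 genes passed the filter, se being the exception. In I172G against control 6 rose and 1 fell (median log2 difference 0.42), in P223L 0 rose and 7 fell (median -0.84), and in SAMC-null 1 rose and 8 fell (median -1.01). Over all genes tested, 14.6% were higher and 17.6% lower in I172G, 36.3% and 42.4% in P223L, and 38.2% and 43.5% in SAMC-null. Set directly against P223L, I172G was higher in 8 of 9 and lower in 0, with a median of 0.98, beside 42.9% higher, 38.0% lower and a median of 0.05 over all genes tested. Pu, GTP cyclohydrolase at the head of the pathway, differed by 1.19 ± 0.41 in I172G (adjusted p = 0.0443), -1.04 ± 0.09 in P223L (adjusted p = 4.22e-07) and -1.02 ± 0.09 in SAMC-null (adjusted p = 4.9e-07). I172G replicate 1 held 5040 normalised counts of Pu, against 849.6 to 1315 in the other 4 libraries, and without it the difference from control was 0.73 ± 0.14 (adjusted p = 0.00568).

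The remaining pteridine genes followed in part. Pcd, the dehydratase that recycles biopterin, rose by 0.42 in I172G (adjusted p = 0.00675) and fell by 1.44 in P223L (adjusted p = 4.58e-08) and 1.63 in SAMC-null (adjusted p = 4.34e-09). DhpD, the dihydropterin deaminase, rose by 0.34 in I172G (adjusted p = 0.00988) and fell by 0.84 in P223L (adjusted p = 2.44e-07) and 1.13 in SAMC-null (adjusted p = 1.54e-08). Sptr, sepiapterin reductase, rose by 0.56 in I172G (adjusted p = 0.0136) and fell by 0.42 in P223L (adjusted p = 0.00911) and 0.51 in SAMC-null (adjusted p = 0.00217). Dhpr, dihydropteridine reductase, rose by 0.54 in I172G (adjusted p = 0.0196) and fell by 0.26 in SAMC-null (adjusted p = 0.00604), and differed by -0.18 in P223L (adjusted p = 0.0509). Hn, phenylalanine hydroxylase, which uses tetrahydrobiopterin, fell by 0.62 in P223L (adjusted p = 1.8e-05) and 0.50 in SAMC-null (adjusted p = 0.000182), with -0.24 in I172G (adjusted p = 0.147). The exception was cl, a thioredoxin-like gene of drosopterin synthesis, which rose in SAMC-null by 0.29 (adjusted p = 0.00157) and differed by 0.14 in I172G (adjusted p = 0.192) and 0.15 in P223L (adjusted p = 0.0697).

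**Figure D4:**
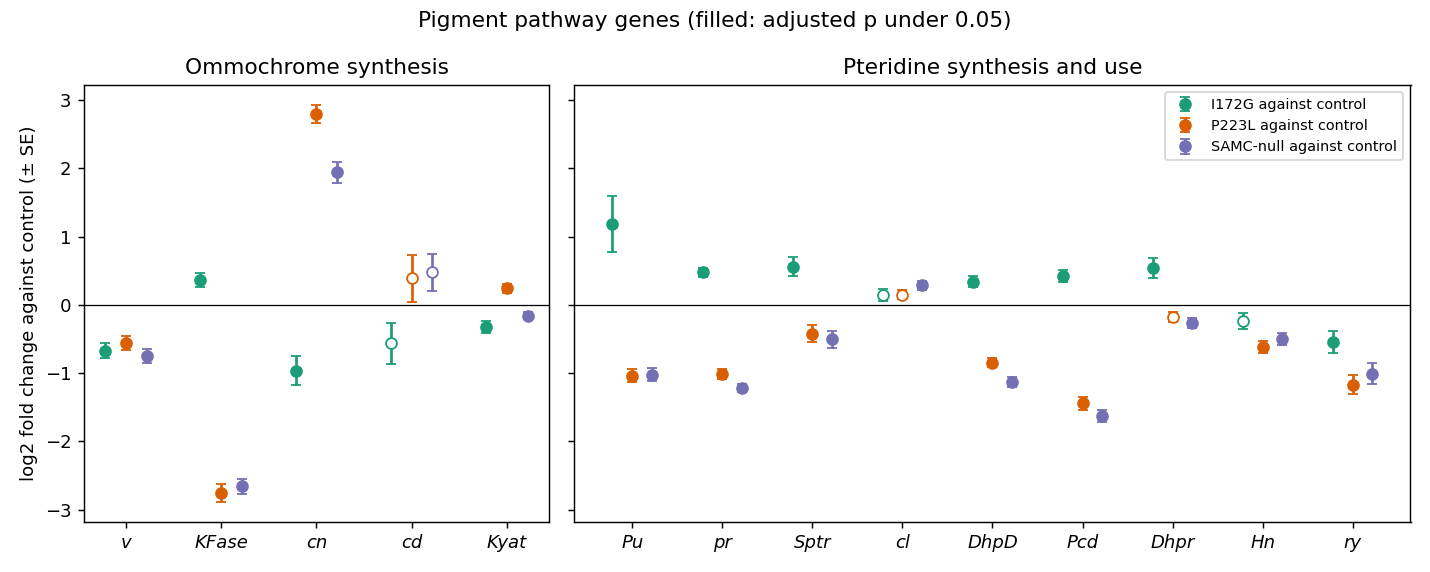
Points give the log2 difference of I172G, P223L and SAMC-null from control for ommochrome genes (left) and pteridine genes (right), with SE bars, filled where the adjusted p was under 0.05. KFase fell by 2.755 in P223L while cn rose by 2.80, and Pcd, DhpD, Sptr, pr and Pu are above 0 in I172G and below 0 in P223L and SAMC-null.

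The xanthine dehydrogenase made by ry needs a sulfurated molybdenum cofactor, which other genes make and other enzymes use. Mocs2A and Mocs2B, made from a shared transcript, count once here, and AOX4 is left out since it passed the filter in the severe lines through control alone. Of the 7 genes then left, ry included, 1 rose and 1 fell in I172G (median 0.03), 5 rose and 1 fell in P223L (median 0.575), and 5 rose and 2 fell in SAMC-null (median 0.52). Beside them, 32.2%, 78.7% and 81.7% of all genes tested were called in those lines, 14.6%, 36.3% and 38.2% as higher. Mocs1, for the first step of cofactor synthesis, averaged 574 ± 49.9 normalised counts in I172G, 2245 ± 89.6 in P223L, 2547 ± 74.5 in SAMC-null, against 559.6 ± 35.4 in control. It rose by 2.00 ± 0.05 in P223L (adjusted p = 1.88e-11) and 2.19 ± 0.05 in SAMC-null (adjusted p = 3.28e-12), and differed by 0.03 in I172G (adjusted p = 0.76). The sulfurase mal rose by 0.73 in P223L (adjusted p = 3e-07) and 0.52 in SAMC-null (adjusted p = 3.38e-05), with 0.08 in I172G (adjusted p = 0.484). For cin the difference was 0.26 in P223L (adjusted p = 0.00208), 0.19 in SAMC-null (adjusted p = 0.00808) and 0.17 in I172G (adjusted p = 0.0878). Mocs2A, whose values Mocs2B nearly repeats, rose by 0.57 in P223L (adjusted p = 0.000288) and 0.68 in SAMC-null (adjusted p = 0.000106) and differed by -0.22 in I172G (adjusted p = 0.217).

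The aldehyde oxidases, which use the same cofactor, did not move together. AOX1 rose in I172G by 0.30 (adjusted p = 0.00805), in P223L by 1.71 (adjusted p = 1.01e-10) and in SAMC-null by 1.55 (adjusted p = 1.15e-10). AOX3 fell by 0.74 in SAMC-null (adjusted p = 0.00687) and differed by -0.08 in I172G (adjusted p = 0.814) and 0.15 in P223L (adjusted p = 0.533). Without control replicate 4, which held 6678 normalised counts of it, AOX3 rose in P223L by 0.40 (adjusted p = 0.000104), fell in SAMC-null by 0.49 (adjusted p = 7.78e-06) and differed by 0.17 in I172G (adjusted p = 0.115). AOX4 was at 1316 to 3285 normalised counts in I172G, 0 to 3.76 in P223L and 0 to 2.32 in SAMC-null, against 15.9 to 3454 in control, where its 5 libraries spread widely. For P223L and SAMC-null these values stand without a test, and in I172G the difference of 3.27 ± 1.32 had an adjusted p of 0.0779 (4.25 ± 1.13 and 0.0121 without control replicate 4).

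Eye colour also depends on the vesicle sorting genes that form pigment granules, and on relatives of w. Of 12 granule genes, 1 rose and 1 fell in I172G, 2 rose and 7 fell in P223L, and 3 rose and 6 fell in SAMC-null. The numbers called were 2, 9 and 9 of 12, beside 32.2%, 78.7% and 81.7% of all genes tested, so none of them lies above the background. Rab32, encoded by lightoid, rose by 0.73 in I172G (adjusted p = 0.000106), 0.28 in P223L (adjusted p = 0.0028) and 0.73 in SAMC-null (adjusted p = 1.09e-06). The adaptor complex subunits g and rb fell in P223L, by 0.49 (adjusted p = 7.51e-06) and 0.56 (adjusted p = 4.83e-07), and in SAMC-null, by 0.36 (adjusted p = 9.82e-06) and 0.51 (adjusted p = 9.05e-07). In I172G lt, a vacuolar sorting gene, fell by 0.34 (adjusted p = 0.00164).

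Of 11 other ABC transporters of the subfamily of w, 3 rose and 1 fell in I172G, 5 rose and 4 fell in P223L, and 4 rose and 3 fell in SAMC-null. The share called was near the background of 32.2% in I172G and 78.7% in P223L, and below that of 81.7% in SAMC-null. Without control replicate 4, 6 rose and 3 fell in SAMC-null, near that background. CG9664 rose by 2.05 in I172G (adjusted p = 3.03e-06) and fell by 2.55 in P223L (adjusted p = 9.96e-09) and fell by 2.34 in SAMC-null (adjusted p = 2.38e-08). E23, an ecdysone-inducible transporter, rose by 0.97 in I172G (adjusted p = 0.0167), 2.13 in P223L (adjusted p = 1.91e-08) and 2.00 in SAMC-null (adjusted p = 1.57e-08). Atet rose by 1.81 in P223L (adjusted p = 5.83e-09) and 2.00 in SAMC-null (adjusted p = 2.39e-09), and CG17646 by 1.43 (adjusted p = 1.72e-09) and 1.78 (adjusted p = 9.71e-11). None of them reached the difference seen for w.

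Markers of the tissues that use these genes were measured in the same libraries. The 12 Malpighian tubule markers summed to 16296 to 19140 normalised counts in I172G, 9305 to 10153 in P223L and 12591 to 13332 in SAMC-null, against 19738 to 22599 in control. Of them 0 rose and 3 fell in I172G, 2 rose and 8 fell in P223L and 2 rose and 8 fell in SAMC-null, and none was at 0 in a group. The 10 of 12 called in each severe line are near the background of 78.7% in P223L and 81.7% in SAMC-null. Uro, the tubule urate oxidase, averaged 7765 ± 675 in I172G, 786 ± 57.9 in P223L, 4649 ± 249 in SAMC-null, against 8797 ± 1207 in control (SD, n = 5). It makes up much of the marker sum, so the lower sum in P223L than in SAMC-null reflects Uro and not the 12 markers together. Uro fell by 3.48 in P223L (adjusted p = 1.22e-11) and 0.91 in SAMC-null (adjusted p = 6.7e-07). CapaR and Lkr, the 2 that rose in P223L, went the other way. CapaR averaged 53.6 normalised counts in I172G, 84.8 in P223L, 116 in SAMC-null, against 55.4 in control. Lkr averaged 163 in I172G, 184.5 in P223L, 220.5 in SAMC-null, against 133.5 in control. The part of the tubule in the lower v and ry was not tested, nor in the higher w and cn. The 20 eye disc and photoreceptor markers summed to 3598 to 4062 in I172G, 2851 to 3112 in P223L and 2814 to 3274 in SAMC-null, against 3292 to 3614 in control. In I172G 2 of 15 tested rose and 1 fell, beside 32.2% called over all genes in this comparison. The proneural gene ato, which founds the photoreceptors, was at 0 in every P223L library and at most 0.77 in SAMC-null. It passed the filter in both severe lines through control alone, so no count of calls is given for this list there. In those lines the markers went both ways. The gene eya fell by 2.02 in P223L (adjusted p = 2.57e-09) and 2.06 in SAMC-null (adjusted p = 1.93e-09), while Rh6 rose by 2.00 (adjusted p = 1.37e-08) and 2.03 (adjusted p = 4.69e-09). Their part in the pigment gene differences was not tested.

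Within control, replicates 1 and 3 held more of several of these transcripts than the other 3 libraries. They had 15.9 and 23.4 normalised counts of w, against 3.47 to 5.64 in the others, 1278 and 1456 of v, against 988 to 1008, and 1667 and 1713 of ry, against 964 to 1201. For cn they had 65.4 and 67.6, against 43.8 to 50.2, for st 329 and 377, against 225 to 314, and for Uro 9515 to 10242, against 7172 to 8998. The genes bw, se and pr did not share this split.

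The positions of the 8 genes are those of the Ensembl annotation of BDGP6.54, the authors' notes naming the build BDGP6. On the X chromosome lie w (FBgn0003996, 2790599 to 2796466, minus strand) and v (FBgn0003965, 10923972 to 10925631, plus strand). On 3L lie st (FBgn0003515, 16497651 to 16500460, plus strand) and se (FBgn0086348, 8520552 to 8521489, plus strand). On 2R lie bw (FBgn0000241, 23527805 to 23538499, minus strand) and cn (FBgn0000337, 7782797 to 7785067, minus strand). On 3R lies ry (FBgn0003308, 13032528 to 13038020, plus strand), and on 2L pr (FBgn0003141, 20073719 to 20075458, minus strand). The w gene lies inside kirre, on the opposite strand and with 0 shared exonic bases, and st lies inside CG43373 in the same way.

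Those host genes rose in the severe lines. Against control, kirre, a cell adhesion gene of muscle founder cells, rose by 1.74 in P223L (adjusted p = 7.35e-09) and 1.96 in SAMC-null (adjusted p = 1.12e-09), with 0.04 in I172G (adjusted p = 0.847). Its mean was 162 normalised counts in I172G, 525 in P223L, 614 in SAMC-null, against 158 in control. The part of kirre in the level of w was not tested. CG43373 rose by 3.80 in P223L (adjusted p = 9.3e-10) and 2.93 in SAMC-null (adjusted p = 5.92e-09), and fell by 0.55 in I172G (adjusted p = 0.0453), beside -0.12 for st in P223L, -0.56 in SAMC-null and -0.47 in I172G. Within 20 kb of the start of w lie 2 other genes. The nearest, CG32795 at 5899 bases, differed by -0.19 in I172G (adjusted p = 0.0922) and was lower than control in P223L (-0.94, adjusted p = 1.33e-09) and SAMC-null (-1.31, adjusted p = 4.1e-11). CG12498 on the other side, at 13415 bases, differed by -1.34 in I172G (adjusted p = 0.107) and did not pass the filter in the severe lines. For cn, 2 of 5 tested neighbours rose and 0 fell in I172G, 2 rose and 3 fell in P223L, and 1 rose and 3 fell in SAMC-null. For pr, 2 of 11 rose and 2 fell in I172G, 2 rose and 5 fell in P223L, and 3 rose and 5 fell in SAMC-null. With 32.2%, 78.7% and 81.7% of all genes called in these lines, the neighbour counts of cn and pr are too small to stand apart from the background. The gene neb, a kinesin whose start lies 299 bases from that of pr, fell by 1.57 in I172G (adjusted p = 0.000246), where pr rose, and pr and neb both fell in P223L (neb -1.36, adjusted p = 1.51e-05) and in SAMC-null (neb -1.48, adjusted p = 6.24e-06). In I172G against control CG11668, the nearest tested gene on 1 side of ry, rose by 0.56 (adjusted p = 0.0111), and the nearest tested genes of bw (mi and AIMP3), v (CG43901 and CG2145) and cn (Gdap2 and CanB2) did not pass.

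Over the 20 libraries, the profile most like that of w on the log2(normalised count + 1) scale belonged to Spn42De, a serpin, with Pearson r = 0.96 among 12638 genes compared. Next came vri, a clock transcription factor (r = 0.96), CG11658 (r = 0.94), Lgr3, a relaxin receptor homologue (r = 0.94), and Naus (r = 0.94). These values rest on differences between the 4 groups and are a description. Spn42De averaged 472 ± 73.1 normalised counts in I172G, 689 ± 67.5 in P223L, 1437 ± 33.7 in SAMC-null, against 142 ± 21.1 in control (SD, n = 5), a smaller range than that of w in the same order. For the other genes the closest profiles were CG7910 (0.86) and POLDIP2 (0.85) for st, CG16786 (0.81) and CG31777 (0.78) for bw, CG13566 (0.94) and neb (0.94) for v, qless (0.99) and PolG1 (0.99) for cn, pug (0.94) and Sardh (0.94) for ry, and Inx3 (1.00) and Mct1 (0.99) for pr.

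Of these genes Lgr3 lies beside the SAM carrier gene itself. CG4743 occupies 25679242 to 25680550 on the minus strand of 3R, and Lgr3 (25665809 to 25677214) ends 2.03 kb from it. CG4730 (25677072 to 25678682, minus strand) and CG5039 (25678683 to 25679529, plus strand) fill the gap, the first overlapping the end of Lgr3 and the other the end of the carrier gene, each on the opposite strand, so that reads in the overlaps cannot be told apart. CG4730, CG5039 and the other carrier neighbours were looked up after the profile of Lgr3 had been seen. Lgr3 was picked for its likeness to w, so its order and differences are set by that choice, and values at this locus are a description with no test. Lgr3 was read at 95.4, 64.1, 41.1, 55.2 and 75.6 normalised counts in I172G, at 148, 94.0, 59.0, 132 and 141 in P223L and at 324, 374, 155.5, 280.1 and 256 in SAMC-null, against 14.8, 19.1, 39.9, 19.7 and 21.6 in control. No library of a carrier line fell below a control library. Its log2 difference from control was 1.51 in I172G, 2.27 in P223L, 3.56 in SAMC-null.

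CG5039 averaged 120.4 ± 18.4 in I172G, 121 ± 27.0 in P223L, 226 ± 54.9 in SAMC-null, against 48.9 ± 7.89 in control (SD, n = 5), with log2 differences from control of 1.28, 1.28 and 2.16 for the lines in that order. CG4730 was at 59.2 to 131 in I172G, 79.6 to 188 in P223L and 156 to 362 in SAMC-null, against 50.4 to 105 in control, with differences of 0.41, 0.84 and 1.82. Farther out on the same side, RASSF8 differed by 0.07, 0.19 and 0.40 and Tnks by -0.28, -0.09 and 0.03. On the other side of the carrier gene, Idh3g, for a subunit of isocitrate dehydrogenase, differed by -0.66, -0.78 and -1.12, RpL27 by -0.11, 0.28 and 0.18, and CLS by -0.08, -0.44 and -0.66. CG4743 itself differed by 0.46, 0.73 and -0.14. Over the 20 libraries Pearson r with w was 0.93 for CG5039, 0.79 for CG4730, 0.67 for RASSF8, -0.01 for Tnks and 0.13 for CG4743. On the other side of the carrier gene it was -0.95 for Idh3g, 0.475 for RpL27 and -0.78 for CLS. Replicate 3 was the lowest library of SAMC-null and of P223L in w, Lgr3, CG4730, CG5039 and CG4743. In I172G the libraries did not line up in this way: w was highest in replicate 5 and lowest in replicate 2, while Lgr3, at 95.4, CG4730, at 131, and CG5039, at 137.5, were highest in replicate 1. The part of the carrier locus in the level of w was not tested.

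**Figure D5:**
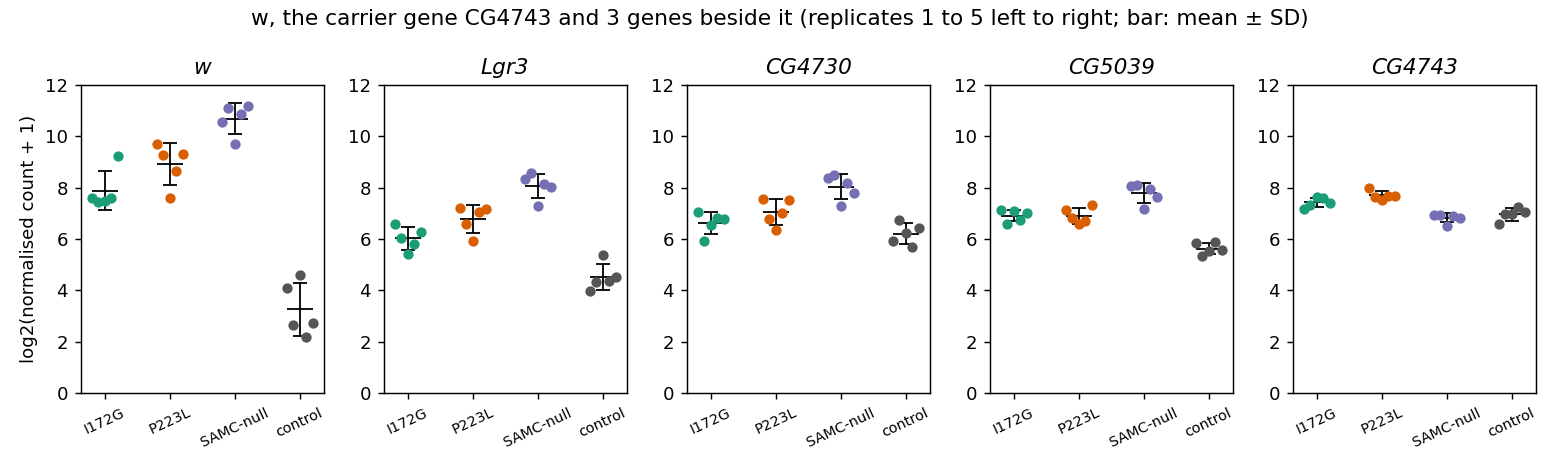
Panels give log2(normalised count + 1) in every library for w, for 3 genes on 1 side of the carrier gene and for CG4743 itself, with replicates 1 to 5 from left to right in each group and bars of mean ± SD (n = 5). Lgr3 is at 156 to 374 normalised counts in SAMC-null and at 14.8 to 39.9 in control, and CG4743 shows no such order.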

How the data were processed

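RNA of whole larvae was sequenced as paired reads of 75 bases after ribosomal RNA removal, at a stated 3M reads per sample, per the labels' protocols. The submitters' processing notes name Salmon 0.11.3, DESeq2 1.26.0 and BDGP6; roles, annotation and strand are not given in the sources used here. The authors deposited 3 tables, each setting a carrier line beside the same control libraries, with normalised counts (a signal scaled between libraries, not whole reads) for 14081 genes, log2 fold changes with standard errors, a score (the test statistic), and p-values with adjusted p-values. That statistic is 0 for every gene within 2-fold and otherwise equals the part of the log2 fold change beyond 1 over its standard error (to within 5% plus 0.05), so these p-values test for a change beyond 2-fold. The control columns of the 3 tables agreed to within 0.005. Because these values are not raw counts, no count test was run and the true depth is unknown.

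For each of 6 comparisons, genes reaching a normalised count of 10 in 5 or more of the 10 libraries entered limma 3.58.1 (R 4.3.3) on log2(value + 1), a scale that understates the change of low genes, with an intensity trend, two-sided, and Benjamini-Hochberg adjustment over all genes tested at 0.05. Standard errors stand after ±, unless SD is written. The fit was checked on simulated data. Tables and figures used matplotlib 3.10.9, numpy 2.4.6 and pandas 2.3.3 under Python 3.11.15. The pigment genes and the lists were chosen with earlier results of these data known. Named were the 8 genes, every tested gene of the ommochrome, pteridine and molybdenum cofactor lists, and the 5 profiles most like that of w and 2 most like each other gene. Genes named from the other lists are a selection that does not strictly follow the order of adjusted p. The gene cn carries no symbol in the tables and was matched by identifier. Replicate numbers recur in all 4 groups, but same-numbered libraries did not deviate together (r from -0.21 to 0.10, with 0 of 5 pairs over 0.1 in each comparison).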

Additional observations from a re-analysis of the deposited data

Results flagged for a closer look

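In 26 pigment, pteridine and cofactor genes, 104 groups of 5 libraries were searched for a library far from the other 4, and 12 were found. Chance alone gives about 1 group in 20 for independent, normally spread values. The search used untransformed counts of genes read in the same libraries, so that rate need not hold and no excess is measured. Among the pigment genes, w in I172G replicate 5 was 599 normalised counts, against 173 to 194 in the other I172G libraries. For bw, I172G replicate 1 held 200.4, against 20.7 to 38.8. For v, I172G replicate 3 held 757, against 692 to 706.

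In the pathway genes, Pu in I172G replicate 1 held 5039.6 normalised counts, against 849.6 to 1315. In the same library Eig71Ed was at 203, against 0 to 1.08 in the other 4, and b at 2250.7, against 19.6 to 35.5, both looked up after its values were seen. SAMC-null replicate 1 was highest in Kyat (1872, against 1723 to 1761), in Hn (3879, against 3290.4 to 3398) and in AOX3 (2153, against 1933 to 1981). Control replicate 4 was highest in cl (2241, against 1737 to 1882), in AOX3 (6678, against 2532 to 3064) and in AOX4 (3454, against 15.9 to 917). Control replicate 3 was lowest in Kyat (1694, against 2009 to 2091), and P223L replicate 4 was lowest in mal (869, against 936 to 950). No cause of these values was tested.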

How the results depend on the processing

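Of 728 log2 differences of the pigment genes under 28 alternatives, w included, 693 were kept, 6 gained and 29 lost the call, and none reversed. Kept meant the same direction and side of the threshold. For w, which has no test, it meant a shift below its SD on the log2 scale in the tested line. The authors' deposited adjusted p, which tests beyond 2-fold, called 139 of all genes for I172G (here 3940), 3786 for P223L (here 9606) and 4163 for SAMC-null (here 10006). Without w, it called 0, 1 and 2 pigment genes (here 5, 4 and 5). The pigment gene counts that follow also leave out w. Leaving out 1 library in turn gave 3 to 6 pigment genes in I172G against control (3 without control replicate 1 or 3), 4 to 4 in P223L, 5 to 5 in SAMC-null, 3 to 4 in I172G against SAMC-null, 4 to 5 in P223L against SAMC-null and 4 to 6 in I172G against P223L, and 2740 to 5049 of all genes in I172G against control. With the replicate number as a block, 4 pigment genes passed in I172G against control (ry lost, adjusted p = 0.0767) and 3 in I172G against SAMC-null (bw lost, adjusted p = 0.0551), and 2687 of all genes in I172G against control.

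Chosen after seeing the data, leaving out control replicate 4 gave in I172G 3 higher cofactor genes (here 1) and 2 higher granule genes (here 1), and in P223L 1 higher pteridine gene (here 0), 7 higher cofactor genes (here 6) with AOX3 added, 1 lower cofactor gene (here 2), as AOX4 then failed the filter, and 1 higher granule gene (here 2). The same omission gave 7 higher pteridine genes in I172G (here 6). In SAMC-null it gave 2 lower ommochrome genes (here 3), 5 lower granule genes (here 6) and 2 lower cofactor genes (here 3). Of the other transporters of the subfamily of w, 4 were then higher in I172G (here 3), 6 in P223L (here 5) and 6 in SAMC-null (here 4). The cofactor counts here are over the list of 9 genes. No other cause was tested. Genes read at a few normalised counts, such as se and w in control, limit the precision.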
